A study of Homo sapiens with 6 samples.

Results

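The 10 genes described here surround CPT1 in the import, activation and oxidation of long-chain fatty acids. They were chosen by name as the carnitine shuttle and acyl-CoA handling genes, and each was found once among the 52807 rows of the deposited FPKM matrix. They are CPT2, SLC25A20, CROT, SLC22A4, SLC16A9, TMLHE, ALDH9A1, ACSL1, ACSL3 and ACADVL. Transcript levels were measured in NCI-H460 cells, a line from a human large cell carcinoma of the lung. CRISPR interference uses a Cas9 that no longer cuts DNA, joined to the KRAB repressor, and a guide RNA brings it to a gene to lower transcription. All cells, the controls included, were infected with lentivirus for KRAB-dSpCas9 and a guide, and puromycin selection (2 μg/ml) began at 48 h. All 6 samples are listed with 10% FBS (fetal bovine serum). The control group carried a nontargeting guide (sgNTG, genotype given as WT), and the other groups carried 1 of 2 guides against CPT1 (sg1 and sg2, genotype given as CPT1 knockdown). Each group had 2 libraries, 6 in all. The labels do not say which CPT1 isoform the guides bind or whether the replicates were independent cultures. The p-values therefore reflect only how far these libraries vary, and that variation may be technical. CPT1 itself was not analysed here, so these values do not show how far either guide lowered its target.

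Long-chain fatty acids cross the inner mitochondrial membrane as carnitine esters. Acyl-CoA synthetases such as ACSL1 and ACSL3 activate the fatty acid to acyl-CoA, CPT1 on the outer membrane moves the acyl group to carnitine, the carrier SLC25A20 exchanges the acylcarnitine for free carnitine, and CPT2 on the matrix side re-forms acyl-CoA. ACADVL then catalyses the first step of beta-oxidation of long chains. Cells obtain carnitine by uptake or by synthesis from trimethyllysine, a route that includes TMLHE and ALDH9A1, while CROT acts in peroxisomes on medium-chain products.

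Facts of the whole table set the scale. FPKM scale fragments to transcript length and to the total of mapped fragments, so levels can be compared between genes. Each library totalled 251694 to 260492 FPKM over its rows, and the absolute depth is unknown. Tests covered 8887 genes whose mean reached 1 FPKM, and all 10 shuttle and acyl-CoA genes passed that filter with no library under 1 FPKM. The epithelial markers found in the table (KRT18, KRT19 and CDH1, 3 of 6 listed) summed to 242 to 245 FPKM with sgNTG, 271 to 277 with sg1 and 228 to 234 with sg2. CDH1 was near 0 in that list. The mesenchymal markers VIM and FN1 (2 of 3) summed to 1666 to 1675 FPKM with sgNTG, 1619 to 1648 with sg1 and 1695 to 1712 with sg2. Of the fibroblast markers COL1A2 and LUM (2 of 4), almost all signal came from LUM, and the sums were 44.6 to 47.1, 45.5 to 46.8 and 49.6 to 49.7 FPKM. The epithelial and mesenchymal sums did not overlap between any of the groups, and the part of these markers in the results below was not tested. Of the tested genes, 41.1% did not overlap between sg1 and sgNTG, 41.1% between sg2 and sgNTG and 48.6% between the guides. The share that separated all the groups was not computed. All libraries came from NCI-H460 cells, so the names of these marker lists do not show that such other cells were present. In bulk RNA, fewer cells in a state and less RNA per cell cannot be told apart. Of the markers of other lung cells, NKX2-1, SFTPB and SCGB1A1 (3 of 5) summed to at most 0.0622 FPKM, with SCGB1A1 listed at 0 in all 6 libraries. CD68 (1 of 3 leukocyte markers) measured 21.5 to 26.5 FPKM, and no endothelial marker was analysed here.

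The starts of 4 of the genes are shown because the first pair makes up the shuttle after CPT1 and the other pair had the lowest p between the guides. Each line gives the 250 bases before the RefSeq start (GRCh38.p14), 5′ to 3′ on the gene's strand, with capitals for the GC box letters GGGCGG and the CCAAT box letters CCAAT on either strand.
CPT2 (chr1:53196574-53196823, plus strand): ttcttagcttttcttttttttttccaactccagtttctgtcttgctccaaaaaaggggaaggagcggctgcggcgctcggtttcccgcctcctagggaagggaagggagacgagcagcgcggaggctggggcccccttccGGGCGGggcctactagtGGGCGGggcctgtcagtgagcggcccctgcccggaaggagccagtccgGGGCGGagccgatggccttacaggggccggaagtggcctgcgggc
SLC25A20 (chr3:48898883-48899132, minus strand): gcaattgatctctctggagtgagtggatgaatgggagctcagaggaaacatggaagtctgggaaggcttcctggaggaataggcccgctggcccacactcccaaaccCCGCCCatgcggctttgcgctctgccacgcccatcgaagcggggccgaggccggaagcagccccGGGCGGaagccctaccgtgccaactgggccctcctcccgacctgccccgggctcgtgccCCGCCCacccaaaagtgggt
CROT (chr7:87345414-87345663, plus strand): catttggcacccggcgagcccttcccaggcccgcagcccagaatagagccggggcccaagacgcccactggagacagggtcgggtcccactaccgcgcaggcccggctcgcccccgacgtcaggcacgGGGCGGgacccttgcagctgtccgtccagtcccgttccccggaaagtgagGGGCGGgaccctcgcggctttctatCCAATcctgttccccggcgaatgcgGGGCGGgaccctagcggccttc
SLC22A4 (chr5:132294144-132294393, plus strand): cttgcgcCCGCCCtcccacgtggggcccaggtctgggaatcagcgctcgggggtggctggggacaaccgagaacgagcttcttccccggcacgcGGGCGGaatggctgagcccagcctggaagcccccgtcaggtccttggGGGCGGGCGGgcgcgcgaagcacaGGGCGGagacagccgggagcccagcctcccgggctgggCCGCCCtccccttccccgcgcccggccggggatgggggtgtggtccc
The windows of CPT2, SLC25A20 and CROT held 3 GC boxes each and that of SLC22A4 held 6. The GC box nearest to the start ended 39 bases before it in CPT2, 14 in SLC25A20, 16 in CROT and 41 in SLC22A4. CROT was the 1 gene of the 4 with a CCAAT box in the window. RefSeq gives 16 windows for the 10 genes, since ACSL1, SLC16A9 and ACADVL have more than 1 start. A GC box occurred in 12 of these 16 windows (75%) and in at least 1 window of each of the 10 genes, against 42.6% of all 35116 windows of that length. CCAAT occurred in 3 of the 16 (18.8%) against 32% of all. The letters AGGTCA, the core letters bound by nuclear receptors such as the PPARs, were in 0 of the 16 windows against 12.1% of all, and TATAAA was in 2 (12.5%) against 10.7%. These letter matches are descriptions of the windows, whose base composition also differs from the average window, and no binding was measured.

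Levels of the 10 genes ran from 1.13 FPKM, the lowest library of SLC16A9, to 157 FPKM, the highest of ACADVL. ACADVL, the very-long-chain acyl-CoA dehydrogenase, was the highest, and its mean over the 6 libraries lay above that of 97.3% of the tested genes. Its libraries read 134 and 153 FPKM (sgNTG), 157 and 144 (sg1) and 150.3 and 154 (sg2). ACSL3, the acyl-CoA synthetase of the endoplasmic reticulum and lipid droplets, read 50.1 and 50.1 FPKM in the sgNTG libraries, 50.3 and 51.8 under sg1, and 49.9 and 52.7 under sg2. ACSL1, the synthetase of mitochondria and endoplasmic reticulum, read 20.4 and 21.5 FPKM in the sgNTG libraries, 21.3 and 22.1 under sg1, and 22.4 and 20.8 under sg2. The ACSL3 level was thus 2.22 to 2.53 times that of ACSL1 in every library, and the range of that ratio with sgNTG (2.33 and 2.46) lay within the range with sg2. Between them lay ALDH9A1, the aldehyde dehydrogenase of carnitine synthesis, at 29.5 and 29.9 FPKM in the sgNTG libraries, 29.4 and 31.8 under sg1, and 29.33 and 29.31 under sg2.

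The shuttle proper was expressed near the middle of the distribution. CPT2 read 6.25 and 5.45 FPKM in the sgNTG libraries, 5.83 and 5.36 under sg1, and 5.28 and 5.35 under sg2, and 46.6% of tested genes had a lower mean. SLC25A20 read 5.13 and 5.28 FPKM in the sgNTG libraries, 5.22 and 5.03 under sg1, and 5.39 and 4.88 under sg2. Carrier and transferase were at close levels, with a CPT2 to SLC25A20 ratio between 0.978 and 1.22 over the 6 libraries. TMLHE, the trimethyllysine hydroxylase that starts carnitine synthesis, read 5.95 and 6.94 FPKM in the sgNTG libraries, 5.6 and 6.13 under sg1, and 5.35 and 6.91 under sg2. The 3 neighbours TMLHE, CPT2 and SLC25A20 overlapped in their ranges over the libraries, while no other neighbours in the order of levels did. The level of ACADVL was 21.4 to 28.7 times that of CPT2.

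The remaining 3 genes were the lowest. CROT, the peroxisomal carnitine octanoyltransferase, read 4.76 and 3.88 FPKM in the sgNTG libraries, 3.594 and 3.593 under sg1, and 4.17 and 4.78 under sg2. SLC22A4, an organic cation transporter better known for ergothioneine than for carnitine, read 2.872 and 2.55 FPKM in the sgNTG libraries, 2.875 and 3.28 under sg1, and 2.49 and 2.6 under sg2. SLC16A9, a monocarboxylate transporter family member linked to carnitine efflux, read 1.13 and 1.34 FPKM in the sgNTG libraries, 1.15 and 1.55 under sg1, and 1.19 and 1.53 under sg2. It was also the most variable by the ratio of its highest to its lowest library (1.37), followed by CROT (1.33) and SLC22A4 (1.32), while ACSL3 varied least (1.06). In SLC16A9 and TMLHE the library numbered 2 was the higher in all 3 groups, and such a shared order was seen in 25.4% of the tested genes.

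**Figure D1:**
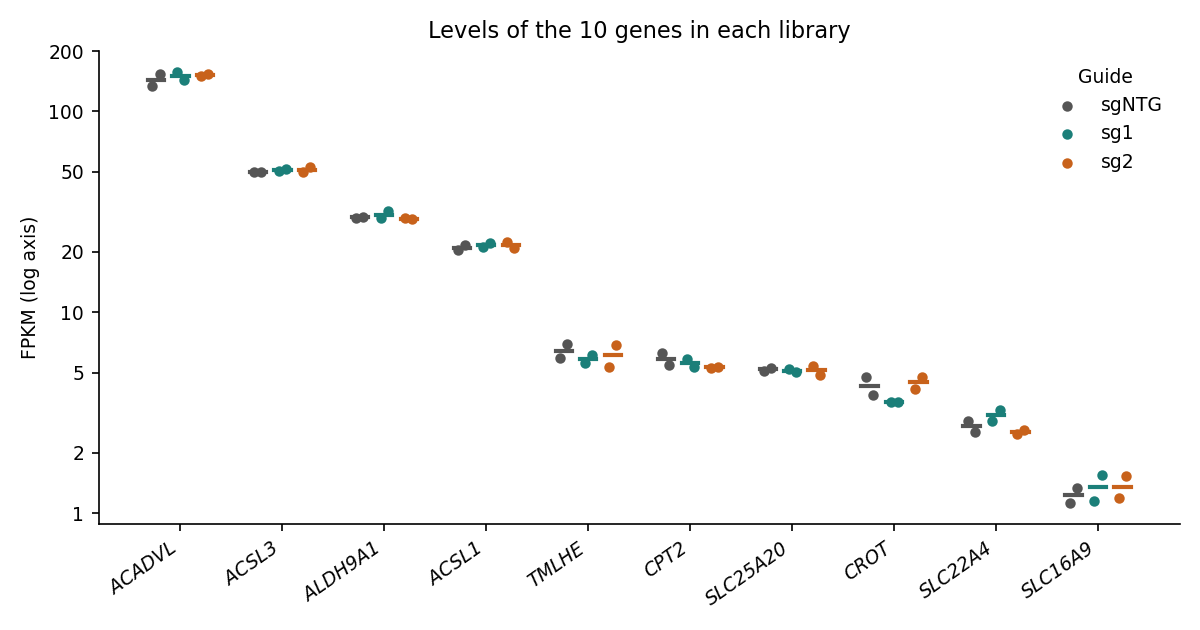
FPKM (log axis) of the 10 genes in each library, ordered by mean level, with 1 point per library and a bar for the mean of the 2 libraries of a guide. ACADVL lies between 134 and 157 FPKM and SLC16A9 between 1.13 and 1.55, and within each gene the guides lie close together.

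None of the 10 genes passed the test when the average of the CPT1 guides was set against sgNTG. Each value was compared as log2(FPKM + 1) in a linear model over all 6 libraries (limma), with p-values adjusted by Benjamini and Hochberg over the 8887 tested genes and a threshold of 0.05. Of the 10 genes 0 were called, where 0.0113% of all tested genes were, and 0 lay under an unadjusted p of 0.05, where 6.3% did. The libraries of the CPT1 guides lay all above or all below those of sgNTG in 0 of the 10, against 12.3% of tested genes (7.06% higher and 5.21% lower). The log2 fold changes ran from -0.091 in TMLHE to 0.078 in ACADVL, with a median of 0.021 against 0.0061 over all tested genes. Of the 10 values 6 were above 0. SLC25A20 (-0.02), ALDH9A1 (0.01), ACSL3 (0.03), SLC22A4 (0.04), ACSL1 (0.045) and SLC16A9 (0.07) lay between. The largest values in size were those of TMLHE (-0.09, 95% interval -0.35 to 0.17), CPT2 (-0.08, -0.26 to 0.09) and CROT (-0.08, -0.30 to 0.14), and the limma adjusted p of the 10 genes were 0.866 or higher. All 10 intervals lay inside a 1.5-fold change in either direction on this scale, with the widest from 0.852-fold to 1.29-fold in SLC16A9. The added 1 FPKM draws the fold change of low genes towards 1. With 0.1 FPKM added, 9 of the 10 intervals lay inside 1.5-fold, and that of SLC16A9 reached 1.53-fold.

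With sg1 alone 0 of the 10 genes were called, against 0.0113% of all tested genes, and 0 had an unadjusted p under 0.05, against 9.92%. CROT had the lowest p. Both sg1 libraries lay below both sgNTG libraries (3.59 ± 0.000619 against 4.32 ± 0.62 FPKM, SD, n = 2 each), a ratio of means of 0.832. Its log2 fold change was -0.21 (SE 0.107, 95% interval -0.46 to 0.05, limma adjusted p = 0.585). The near-identical sg1 values and the wide sgNTG pair show how far the spread of 2 libraries can differ by group. SLC22A4 had a log2 fold change of 0.14 (SE 0.0973, interval -0.10 to 0.37, limma adjusted p = 0.695). Its groups did not overlap, but the lower sg1 library exceeded the higher sgNTG library only in the third decimal (2.875 and 2.872 FPKM). ACSL3 was the other gene with both sg1 libraries above sgNTG, by 1.02-fold. In all, groups did not overlap in 3 of the 10 genes, against 41.1% of tested genes. Of these 1 was lower, against 18.9%, and 2 were higher, against 22.2%. In the shuttle proper, CPT2 (-0.05, interval -0.26 to 0.15) and SLC25A20 (-0.02, -0.20 to 0.16) had intervals on both sides of 0. The carnitine synthesis genes TMLHE (-0.115, -0.42 to 0.19) and ALDH9A1 (0.04, -0.08 to 0.16) lay on opposite sides of 0 without a call. ACSL1 (0.05), SLC16A9 (0.07) and ACADVL (0.07) were above 0, and the limma adjusted p of these 3 were 0.805 or higher. The median over the 10 genes was 0.034, against 0.0070 over all tested genes.

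With sg2 alone 0 of the 10 genes were called either, against 0.0225% of tested genes, and 0 had an unadjusted p under 0.05, against 9.61%. CPT2 had the lowest p here. Its sg2 libraries (5.31 ± 0.0555 FPKM, SD, n = 2) both lay below the sgNTG libraries (5.85 ± 0.566), with a log2 fold change of -0.11 (SE 0.0841, interval -0.32 to 0.09, limma adjusted p = 0.715). ALDH9A1 was the other gene without overlap, with a log2 fold change of -0.02 and a 0.988-fold ratio of means. These 2 of 10 genes compare with 41.1% of all tested genes, or 18.7% for lower alone, while 0 of the 10 were higher without overlap, against 22.3%. ACADVL had the highest value, 0.09 (interval -0.09 to 0.26), and the acyl-CoA synthetases ACSL1 (0.04, -0.10 to 0.18) and ACSL3 (0.03, -0.07 to 0.14) had narrow intervals around 0. SLC25A20 (-0.02, interval -0.20 to 0.16) was again near 0. CROT (0.045, -0.21 to 0.30), SLC22A4 (-0.06, -0.30 to 0.17), TMLHE (-0.07, -0.37 to 0.23) and SLC16A9 (0.07, -0.27 to 0.42) had the wider intervals. The median over the 10 genes was 0.0082, against 0.0062 over all tested genes. The comparisons of sg1 and sg2 with sgNTG share their control libraries.

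**Figure D2:**
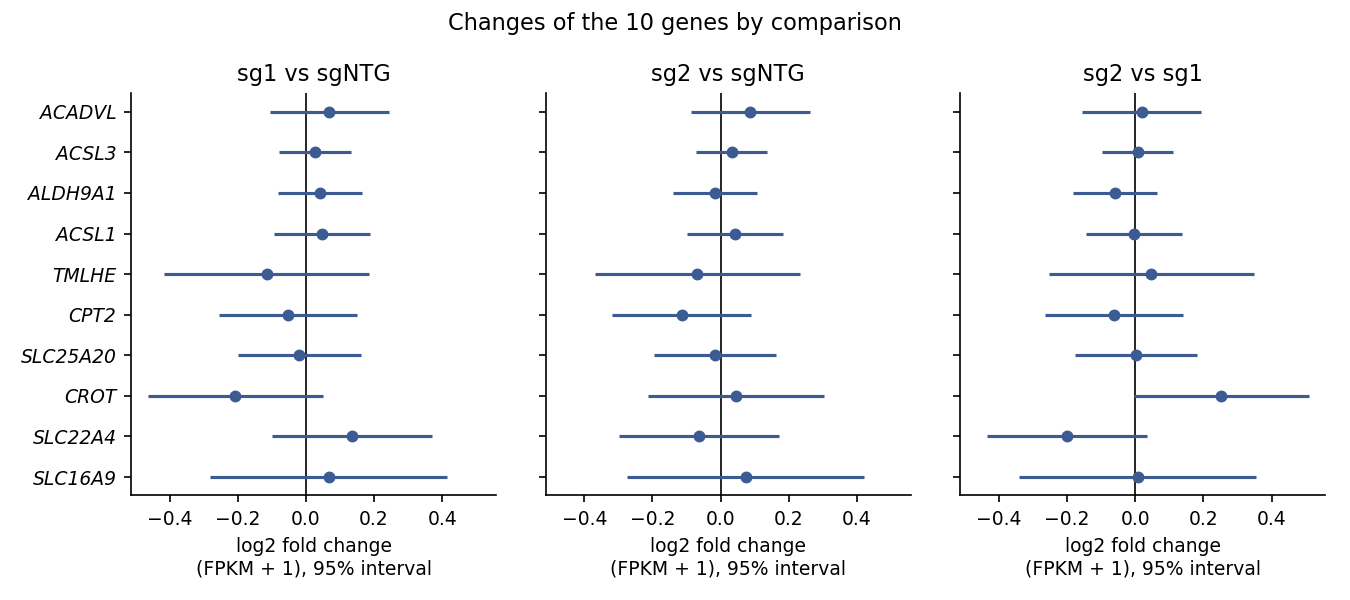
Log2 fold changes on the log2(FPKM + 1) scale (points) with 95% intervals from limma (lines) for the 10 genes in 3 comparisons. Every interval includes 0, and the intervals are narrowest in ACSL3 and widest in SLC16A9.

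The direct comparison of the guides called 115 genes over the table, 1.29% of those tested, and 0 of the 10. An unadjusted p under 0.05 was found in 0 of the 10, against 17% of tested genes. The pair that differed most were CROT and SLC22A4, in opposite directions. CROT was 1.25 times as high with sg2 as with sg1 by the ratio of means (log2 difference 0.25, SE 0.107, interval -0.01 to 0.51, limma adjusted p = 0.301), and both sg2 libraries lay above both sg1 libraries. SLC22A4 was 0.828 times as high (log2 difference -0.20, SE 0.0973, interval -0.43 to 0.04, limma adjusted p = 0.366), with both sg2 libraries below both sg1 libraries. Groups did not overlap in CPT2 and ALDH9A1 as well, which makes 4 of the 10 genes against 48.6% of tested genes. Both separations were narrow. The higher sg2 library and the lower sg1 library read 5.354 and 5.361 FPKM in CPT2, and 29.33 and 29.4 FPKM in ALDH9A1. By direction, 3 were lower with sg2, against 24.2%, and 1 was higher, against 24.4%. The log2 differences of CPT2 and ALDH9A1 were both -0.06, that of TMLHE was 0.05 and that of ACADVL 0.02, with limma adjusted p of 0.614 or higher. The median absolute log2 difference of the 10 genes was 0.033, against 0.098 over all tested genes. SLC25A20, SLC16A9, ACSL1 and ACSL3 had log2 differences within 0.01 of 0. For ACSL3 the interval ran from -0.10 to 0.11, and for SLC16A9 from -0.34 to 0.36, so the low transporter allows a much larger difference than the abundant synthetase. The ratio of CROT to CPT2, both carnitine acyltransferases, came to 0.762 and 0.713 in the sgNTG libraries, 0.616 and 0.67 under sg1 and 0.791 and 0.894 under sg2. It did not overlap between any of the groups, but it was singled out after its values were seen. In the other ratios computed (ACSL3 to ACSL1, CPT2 to SLC25A20, ACADVL to CPT2 and SLC22A4 to SLC16A9), the sg1 libraries lay within the sgNTG range. How often ratios of other gene pairs separate all the groups was not computed.

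**Figure D3:**
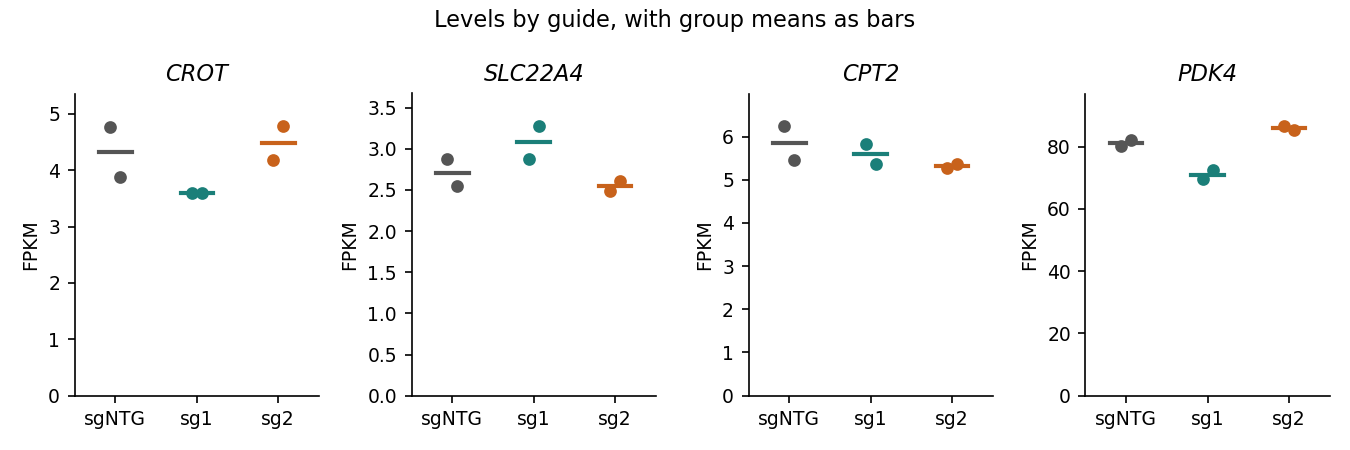
FPKM by guide for CROT, SLC22A4, CPT2 and PDK4, with 1 point per library and a bar for the mean of each group, on axes that start at 0. The sg1 libraries are the lowest in CROT (3.59 FPKM) and PDK4 (69.5 and 72.6 FPKM). The sg2 libraries are the lowest in CPT2 (5.28 and 5.35 FPKM), narrowly below the lower sg1 library (5.36 FPKM).

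Of the 5020 tested genes averaging 5 FPKM or more, the 5 whose log2 levels followed CROT most closely over the 6 libraries were MAP3K21 (Pearson r = 0.982), F2RL2 (0.975), HPS5 (0.974), SPANXN4 (0.972) and MAP7D3 (0.97). MAP3K21 is a mixed-lineage protein kinase, F2RL2 a protease-activated receptor, HPS5 a subunit of a lysosome-related organelle complex and MAP7D3 a microtubule-associated protein. MAP3K21 read 9.11 and 8.05 FPKM in the sgNTG libraries, 7.58 and 7.24 under sg1, and 8.23 and 9.14 under sg2. In all, 47 genes had an r over 0.9, and r over 6 libraries chosen as the highest of so many genes is a description only.

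The wider pathway was read from 7 lists with 154 genes, of which 80 were in the table and 63 were tested. Against sgNTG 0 of the 63 were called with either guide, where 0.0113% (sg1) and 0.0225% (sg2) of all tested genes were. Between the guides 1 of the 63 was called, a share near the 1.29% of all tested genes, so this count shows nothing particular to the lists. The called gene was PDK4, the kinase that inhibits pyruvate dehydrogenase and so favours fat over glucose as fuel. PDK4 read 80.3 and 82.03 FPKM in the sgNTG libraries, 69.5 and 72.6 under sg1, and 86.7 and 85.5 under sg2. Its sgNTG libraries lay between those of the guides, and how often tested genes separate all the groups was not computed. PDK4 was higher with sg2 than with sg1 (log2 difference 0.27, SE 0.0382, limma adjusted p = 0.0380). That call was kept under 4 of 8 other settings (limma adjusted p from 0.0206 to 0.206) and under 0 of the 6 fits that left out a library (0.0738 to 0.182). Against sgNTG its log2 fold change was -0.19 with sg1 (limma adjusted p = 0.268) and 0.08 with sg2 (0.550). In the same list of malonyl-CoA and transcriptional control, with 11 tested genes, RXRB, a partner receptor of the PPARs, read 6.18 and 6.69 FPKM in the sgNTG libraries, 6.42 and 6.06 under sg1, and 8.16 and 7.67 under sg2 (log2 fold change 0.26 for sg2 against sgNTG, limma adjusted p = 0.370). PRKAA2, a catalytic subunit of AMPK, had a log2 fold change of -0.09 with sg1 (limma adjusted p = 0.599). The list median was -0.039 with sg1 and 0.0080 with sg2.

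The mitochondrial beta-oxidation list had 28 genes, of which 11 were in the table and tested. ACADM, HADHA, HADHB, HADH and ETFA were among those not tested, so the counts and medians do not cover the whole pathway. The 11 tested genes had 0 calls in each of the 4 comparisons, with medians of 0.032 with sg1, -0.038 with sg2 and -0.066 for sg2 against sg1. ECHS1, the short-chain enoyl-CoA hydratase, read 32.7 and 33.1 FPKM in the sgNTG libraries, 33.6 and 32.6 under sg1, and 28.98 and 30.2 under sg2 (log2 fold change -0.15 for sg2 against sgNTG, limma adjusted p = 0.404). HSD17B10, a mitochondrial hydroxyacyl-CoA dehydrogenase, read 27.1 and 29.6 FPKM in the sgNTG libraries, 30.9 and 29.6 under sg1, and 25.8 and 25.3 under sg2 (log2 difference -0.24 between the guides, limma adjusted p = 0.116). In both genes the sg2 libraries were the lowest of the 6, without a call. Over all tested genes, both sg2 libraries lay below both sgNTG libraries in 18.7% and below both sg1 libraries in 24.2%. The share below both groups was not computed, and these genes were named for their low p. ACAT1, the mitochondrial acetoacetyl-CoA thiolase, had a log2 fold change of 0.08 with sg1 (limma adjusted p = 0.677).

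The list of acyl-CoA synthetases, binding proteins and thioesterases had 13 tested genes and 0 calls. DBI, the acyl-CoA binding protein, read 60.7 and 61.4 FPKM in the sgNTG libraries, 66.6 and 62.4 under sg1, and 51.3 and 54.8 under sg2 (log2 difference -0.28 between the guides, limma adjusted p = 0.0704). ACBD6, another acyl-CoA binding protein, had a difference of -0.25 (limma adjusted p = 0.0647). Among thioesterases, which release free fatty acids from acyl-CoA, ACOT1 read 2.58 and 2.42 FPKM in the sgNTG libraries, 3.8 and 3.78 under sg1, and 3.12 and 2.36 under sg2. Its log2 fold change was 0.45 with sg1 (limma adjusted p = 0.327), and ACOT1 has near-identical paralogs that can share its reads. ACOT7 had a log2 fold change of 0.22 with sg2 (limma adjusted p = 0.322) and -0.04 with sg1 (0.830). ACOT9 had 0.15 with sg1 (limma adjusted p = 0.515) and 0.11 with sg2 (0.645). Between the guides ACOT7 differed by 0.27 (limma adjusted p = 0.0757), the opposite direction to DBI and ACBD6. Of the 13 tested genes 3 were above 0 in that comparison. The list median was 0.019 with sg1, -0.033 with sg2 and -0.035 between the guides. Of the list of carnitine uptake and synthesis, SHMT1, a serine hydroxymethyltransferase, was the 1 tested gene (log2 fold change 0.18 with sg1, limma adjusted p = 0.636, and 0.04 with sg2, 0.920).

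The peroxisomal, synthetic and storage lists also held 0 calls in each comparison. The peroxisomal beta-oxidation list had 8 tested genes and medians of -0.039 with sg1 and -0.055 with sg2. In it AMACR, a racemase for branched chains, had a log2 fold change of 0.09 with sg1 and HACL1, a lyase of alpha-oxidation, of -0.14. ACOX2, an acyl-CoA oxidase, had -0.17 with sg2, and PHYH, the phytanoyl-CoA hydroxylase, -0.15 between the guides, and limma adjusted p were 0.534 or higher for these 4. In fatty acid synthesis and desaturation, with 11 tested genes and medians of 0.025 with sg1 and -0.0018 with sg2, HACD1, a dehydratase of elongation, read 3.77 and 4.1 FPKM in the sgNTG libraries, 4.93 and 4.76 under sg1, and 3.29 and 3.66 under sg2 (log2 difference -0.39 between the guides, limma adjusted p = 0.0943). The elongases ELOVL4 and ELOVL7 had log2 fold changes of 0.22 and 0.36 with sg2 (limma adjusted p = 0.370 and 0.362). With sg1 these were 0.15 and 0.14 (limma adjusted p = 0.498 and 0.669). The desaturase SCD differed by -0.09 between the guides (limma adjusted p = 0.253). Of 10 tested genes of uptake and lipid droplets, DGAT1, which makes triglyceride, read 2.74 and 2.93 FPKM in the sgNTG libraries, 3.92 and 4.22 under sg1, and 3.16 and 3.48 under sg2 (log2 fold change 0.40 with sg1, limma adjusted p = 0.284). AGPAT2, an acyltransferase of phosphatidic acid synthesis, had -0.12 with sg1 (limma adjusted p = 0.642) and the binding protein FABP5 0.10 with sg2 (0.596). The list median was -0.018 with sg1 and 0.052 with sg2.

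**Figure D4:**
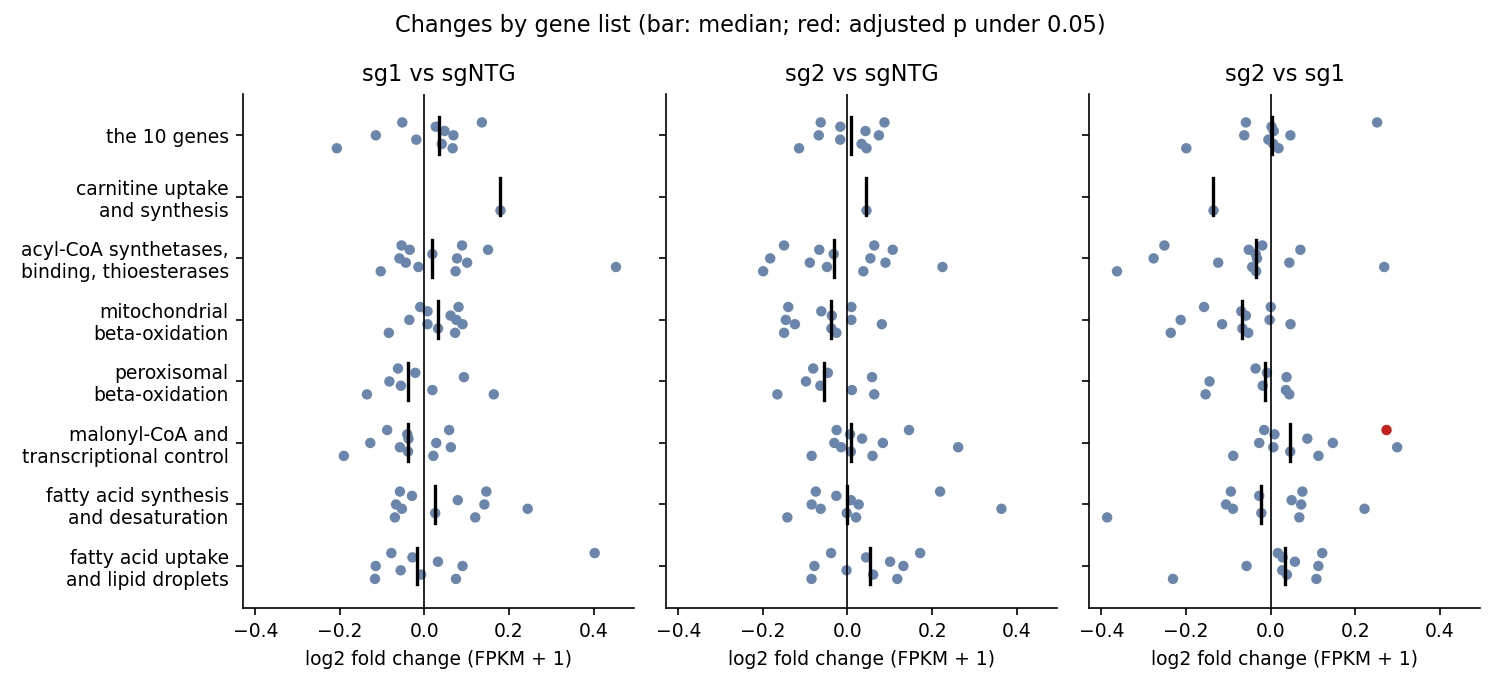
Log2 fold changes on the log2(FPKM + 1) scale for the 10 genes and for the tested genes of each of the 7 pathway lists, with 1 point per gene and a bar for the median. PDK4 (0.27, sg2 against sg1) is the 1 point past the adjusted threshold.

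In GENCODE 29 (hg38) all 10 are protein-coding genes. The annotation places CPT2 on chromosome 1 (53196429 to 53214197, plus strand), SLC25A20 on chromosome 3 (48856931 to 48898993, minus strand), CROT on chromosome 7 (87345681 to 87399795, plus strand) and SLC22A4 on chromosome 5 (132294443 to 132344206, plus strand). It places SLC16A9 on chromosome 10 (59650761 to 59736002, minus strand), TMLHE on chromosome X (155490115 to 155669944, minus strand), ALDH9A1 on chromosome 1 (165662216 to 165698863, minus strand), ACSL1 on chromosome 4 (184755595 to 184826818, minus strand) and ACSL3 on chromosome 2 (222860934 to 222944639, plus strand). ACADVL, on chromosome 17 (7217125 to 7225273, plus strand), shares 85 of its 4865 exon bases (1.75%) with DLG4, a synaptic scaffold gene on the opposite strand. The strand setting of the counting is not given in the sources used here, so reads from the shared stretch cannot be told apart. DLG4 read 8.18 and 7.64 FPKM in the sgNTG libraries, 7.17 and 6.96 under sg1, and 8.28 and 7.41 under sg2, far below ACADVL, and was not called in any of the 4 comparisons (lowest limma adjusted p = 0.439). CPT2 shares 11% of its exon bases with the antisense gene AL606760.2 and SLC22A4 8.74% with the noncoding gene MIR3936HG on the opposite strand, which were not analysed here. Smaller shares were seen in ALDH9A1, of 3.11% with a gene on the same strand and 2.9% with a gene on the opposite strand. ACSL3 (1.41%) and CPT2 (0.947%, with C1orf123) also shared bases with genes on the opposite strand. Values are per gene and pool its transcripts, of which GENCODE lists 12 for CPT2, 4 for SLC25A20, 7 for CROT and 39 for ACADVL.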

How the data were processed

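RNA was extracted with TRIzol from the infected NCI-H460 cells and libraries were made from bead-captured mRNA, per the labels' protocols. STAR and StringTie, with hg38, are named in the submitters' processing notes, while versions, annotation and strandedness are not stated there. The authors' deposited values are FPKM in a single table whose 6 columns matched the 6 samples by name. FPKM hold no counts, so no count test was run. A total of 283 rows whose 6 values repeated those of another row were dropped. The 8887 genes averaging 1 FPKM or more were tested as log2(FPKM + 1), a scale that understates changes of low genes, with limma 3.58.1 in R 4.3.3 (1 mean per group, variance trend, two-sided tests, Benjamini-Hochberg adjustment within each of 4 comparisons, threshold 0.05). The fit was tested on simulated data. Intervals are limma's 95% intervals. Lists were described by counts and medians, with no list test. The members, lists and tests were chosen with earlier results of these data known. All 10 members were named. Of a list, genes called in any comparison and the 2 of lowest p in sg1 against sgNTG, sg2 against sgNTG and sg2 against sg1 were named. Genes of like pattern were the 5 of highest Pearson r with the member of lowest p between the guides. Promoter windows are RefSeq's. The alternatives tried were no variance trend, a replicate block, a pseudocount of 0.1, no filter, a filter at 5 FPKM, median-of-ratios scaling, quantile normalization, a fit of only the libraries compared, and leaving out each library in turn.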

Additional observations from a re-analysis of the deposited data

Results flagged for a closer look

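PDK4, the 1 called gene of the pathway lists, differed between the effects of the guides (log2 difference 0.2743 for sg2 against sg1, limma adjusted p = 0.0380), with both sg1 libraries below and both sg2 libraries above the sgNTG libraries. Of all tested genes 1.29% were called between the guides and 48.6% had guide groups that did not overlap, so 1 call among the 63 tested list genes is near the background. The share of tested genes that separated all the groups, as PDK4 did, was not computed. Leaving out any 1 of the 6 libraries ended the call (limma adjusted p from 0.0738 to 0.182), while the difference stayed between 0.243 and 0.305. None of the 10 shuttle and acyl-CoA genes differed between the guides past the threshold.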

How the results depend on the processing

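None of the 10 genes was called in any of the 4 comparisons under any setting tried. Apart from leaving out libraries, only the pseudocount of 0.1, median-of-ratios scaling and quantile normalization can change a log2 fold change. The remaining settings change only the spread or the genes tested, so their directions were fixed in advance. Over 298 values of the 10 genes under other settings, those fixed ones included, 295 kept their direction, and the lowest limma adjusted p was 0.274. The other 3 reversed, all under quantile normalization for sg2 against sg1, to -0.0006 in SLC25A20, -0.0042 in SLC16A9 and 0.0036 in ACSL1. A filter at 5 FPKM left 7 of the 10 genes. Leaving out 1 library, where a lone library is assumed to vary like the other groups, reversed 35 of 240 values. In sg1 against sgNTG, sg2 against sgNTG and sg2 against sg1, leaving out a library of the uncompared group changes no value. Those of the 240 values could not reverse. The lowest and highest log2 fold changes over the fits that leave out a library follow for each of the 10 genes with a reversal, and also for the pathway genes SHMT1, HACL1 and PHYH, which are not among the 240 values. For sg1 against sgNTG the ranges were CPT2 from -0.1368 to 0.0319, SLC25A20 from -0.0412 to 0.0026, SLC16A9 from -0.0568 to 0.1901, ALDH9A1 from -0.0136 to 0.0956 and ACADVL from -0.0301 to 0.1672. For sg2 against sgNTG the ranges were SLC25A20 from -0.0768 to 0.0432, CROT from -0.0742 to 0.1643, SLC22A4 from -0.1265 to 0, SLC16A9 from -0.0291 to 0.1777, TMLHE from -0.2265 to 0.0908, ACSL1 from -0.0087 to 0.0936, ACSL3 from -0.0055 to 0.0721, ACADVL from -0.0111 to 0.1862, SHMT1 from -0.0924 to 0.1784 and HACL1 from -0.2039 to 0.0077. For the mean of the guides against sgNTG the ranges were CPT2 from -0.1678 to 0.0009, SLC25A20 from -0.048 to 0.012, CROT from -0.2003 to 0.0382, SLC22A4 from -0.027 to 0.0995, TMLHE from -0.1871 to 0.0042, ALDH9A1 from -0.0154 to 0.0392 and ACADVL from -0.0206 to 0.1767. For sg2 against sg1 the ranges were SLC25A20 from -0.0575 to 0.0625, SLC16A9 from -0.1157 to 0.1311, TMLHE from -0.1115 to 0.2057, ACSL1 from -0.0562 to 0.0461, ACSL3 from -0.0322 to 0.0454, ACADVL from -0.0437 to 0.0818 and PHYH from -0.3428 to 0.0357. Same-numbered libraries shared little of their deviation from the group means (correlations 0.0343, -0.0276 and 0.0603). These correlations do not show whether such libraries were prepared together. With the replicate block the lowest limma adjusted p of the 10 genes was 0.624 for sg1, 0.691 for sg2 and 0.849 for their mean against sgNTG, and 0.355 for sg2 against sg1. The call of PDK4 was lost with the block, without a variance trend, without a filter and with only the libraries compared, and the cause was not tested. DBI and ACBD6 were called between the guides with the filter at 5 FPKM (limma adjusted p = 0.0405 and 0.0383). Over all tested genes, sg2 against sg1 gave 115 calls (46 higher, 69 lower), 0 without a variance trend or a filter, 5 with the block, 217 with the filter at 5 FPKM, 85 with quantile normalization (59 higher, 26 lower), 26 with only the libraries compared and 4 to 26 without 1 library. With 2 libraries a group and unknown depth, small differences in low genes such as SLC16A9 were not detectable.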
